A study of Homo sapiens with 28 samples.

Results

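The mitochondrial ribosomal protein genes were described here across RUVBL1 knockdown and compounds B and C in the human lung cancer lines H2009 and H596. The members were all genes whose symbol begins with MRPL (large subunit) or MRPS (small subunit) followed by a digit. There were 80 of 13481 genes in the table of the compounds, 80 of 12068 in the table of the siRNA in H2009 and 78 of 12384 in that of the siRNA in H596. The 80 comprised 50 large and 30 small subunit symbols, of which 77 code for proteins (48 and 29) and 3 are pseudogene rows (MRPL42P5, MRPL45P2 and MRPS31P5). All 80 entered the tests in the first pair of tables and 77 in the H596 siRNA table, where a mean of at least 1 FPKM (fragments scaled by transcript length and by library size) was required.

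Stranded mRNA libraries were made from 10 groups of cells, 2 libraries each. H2009 cells received the siRNA against RUVBL1 (siBL1) or the control siRNA (siNT) for 2.5 days, and H596 cells for 3 days, by reverse transfection. In each line, cells were also treated for 24 h with 100 nM compound B or compound C, or were left untreated, with no vehicle named. The labels give the genotype of both lines as WT and the histology as adenocarcinoma of a non-small cell lung cancer. The compounds are known here by their letters only.

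Mitochondria hold their own ribosome, which translates the few messages of mitochondrial DNA, all of them core subunits of the respiratory chain and of ATP synthase. The RNA of this ribosome is made inside the organelle, but its proteins are encoded by nuclear genes, made in the cytosol and imported. Some of these proteins descend from bacterial ribosomal proteins and others exist only in mitochondria. RUVBL1 and RUVBL2 are ATPases that work together in assembling large complexes.

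RUVBL1 read 1.75 and 1.11 FPKM with siBL1 and 87.8 and 64.3 with siNT in H2009, and 2.26 and 2.52 against 112 and 123 FPKM in H596. The log2 change was -4.98 (SE 0.34) in H2009 and -5.13 (SE 0.22) in H596, with limma adjusted p of 0.560 and 0.158 without and 1.95e-07 and 2.25e-08 with the replicate number in the fit. Its partner RUVBL2 was at 0.07 and -0.23. Neither the meaning of a replicate number nor the use of separate cultures is given, so the p-values here speak of the spread among these libraries, which may be technical. Each count below is from limma on log2(FPKM + 1) without the replicate number (the unpaired fit), beside a paired fit with the number as a block. An adjusted p of 0.05 over all genes tested was the threshold in both. The epithelial markers EPCAM, KRT8, KRT18, KRT19, CDH1 and CLDN4 were in all 3 tables, and the 5 leukocyte markers were in none. Of 5 fibroblast markers, 2 were in the compound table, 1 in the H2009 siRNA table and 4 in the H596 siRNA table. Those 4 (COL1A1, COL1A2, COL3A1 and DCN) summed to 10.4 to 11.3 FPKM with siNT and 8.21 to 10.8 with siBL1. In untreated H596 the 5 squamous markers summed to 1540 to 1824 FPKM and NKX2-1 with SFTA3 to 0.464 to 1.22 FPKM, which goes against the labelled histology; in untreated H2009 each squamous marker was under 1 FPKM, and the other sum was 126 to 163 FPKM.

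Every protein-coding member was expressed in both lines. FPKM is scaled by transcript length, so levels of different genes can be set side by side within a table. Over the 6 H2009 libraries of the compound table, mean levels ran from 13.8 to 286 FPKM in the large subunit (median 69.6) and from 10.4 to 251 FPKM in the small subunit (median 66.3). MRPL33 (286 ± 105 FPKM, SD, n = 6), MRPS15 (251 ± 106) and MRPS35 (214 ± 38.7) were highest, and MRPL30 (23.3 ± 6.60), MRPL19 (13.8 ± 2.93) and MRPS25 (10.4 ± 0.611) lowest. Each SD spans untreated and treated libraries, and differences between the levels of MRPL33, MRPS15 and MRPS35 were not tested. In H596 the order began with MRPS17 (447 ± 65.3), MRPL32 (311 ± 54.5) and MRPS24 (207 ± 74.6) and ended with MRPS31 (25.8 ± 2.63), MRPL19 (21.5 ± 2.44) and MRPS25 (10.6 ± 0.586). In the siRNA tables MRPS15, MRPL33 and MRPS35 were again highest in H2009 and MRPS17, MRPL32 and MRPS24 in H596, over treated and control libraries together. In control libraries alone the order differed in places: MRPL33 led MRPS15 with siNT in H2009, and MRPL3 (mean 209.6 FPKM) preceded MRPS24 (207) in untreated H596. Over treated and control siRNA libraries together, the lowest were MRPS25, MRPL41 and MRPL55 (2.67 ± 0.797 FPKM, SD, n = 4) in H2009. In H596 the lowest were MRPL19, MRPL22 and MRPS25. Between the untreated lines the member levels correlated with r = 0.69 across 77 genes of the same table, and 44 were higher in H596 against 33 in H2009.

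The members together held 1.05% and 1.07% of the FPKM sum in untreated H2009 and 0.901% and 0.901% with compound B, with no overlap. With compound C in H2009 the shares were 1.01% and 1.15%, and replicate 2 of that group stood apart: its FPKM sum was 749060 against 503785 to 632540 in the other 5 H2009 libraries, and its members lay above replicate 1 by a median of 0.61 on the log2 scale. In H596 the shares overlapped between untreated (1.15% and 1.27%), compound B (1.15% and 1.18%) and compound C (1.12% and 1.24%). With siBL1 they were 0.831% and 0.744% against 0.948% and 0.812% in H2009, and 0.939% and 0.989% against 0.974% and 1.02% in H596, lower within each replicate number but overlapping between groups.

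**Figure D1:**
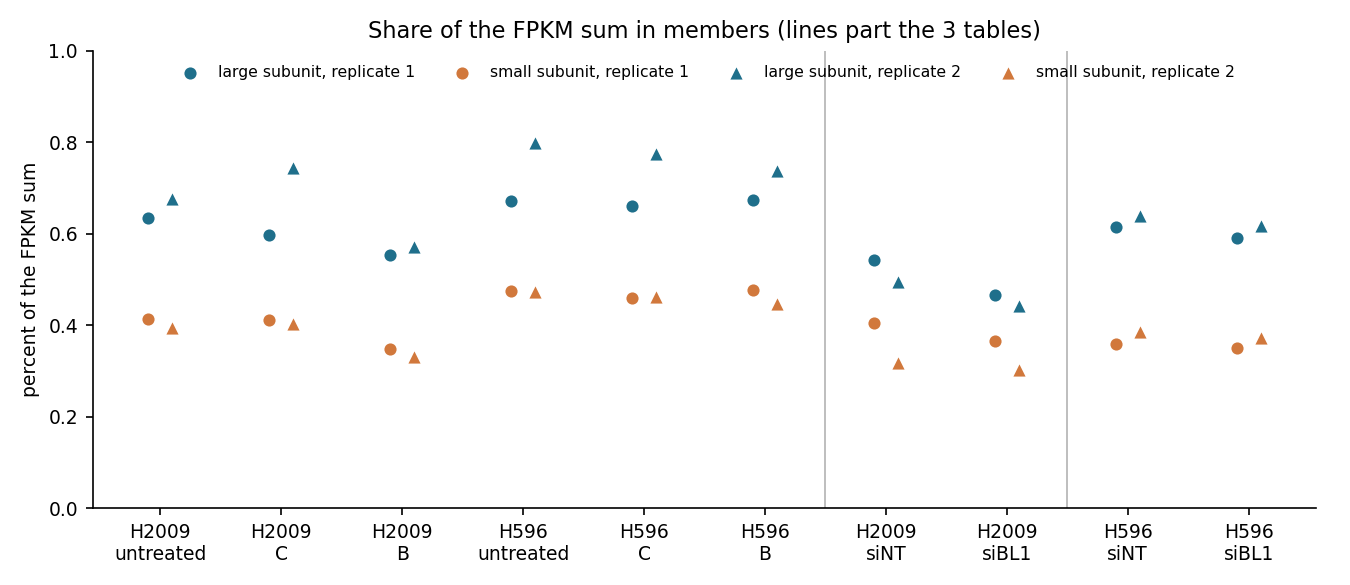
Percent of the FPKM sum of each library that lay in large (blue) and small (orange) subunit members; circles are replicate 1 and triangles replicate 2, and vertical lines part the 3 tables. The 2 compound B libraries of H2009 (0.553% and 0.572% large, 0.348% and 0.330% small) lie below both untreated ones (0.634% and 0.675%, 0.412% and 0.394%).

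With compound B, 5 large and 4 small subunit members fell in H2009. The unpaired fit thus called 9 of 80 lower and 0 higher, beside 5.02% of all genes called lower and 6.36% higher. The paired fit called 41 lower and 1 higher (22.4% and 22.2% of all genes). The libraries with compound B lay below both untreated libraries for 56 members (28.1% of all genes) and above them for 4 (26.3%). The median log2 change was -0.51 in the large and -0.50 in the small subunit, against -0.01 over all genes tested, and 71 of 80 members lay below 0. Within replicates 1 and 2 the median over the members was -0.49 and -0.53. In bulk RNA, fewer cells of a type and less RNA per cell cannot be told apart.

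**Figure D2:**
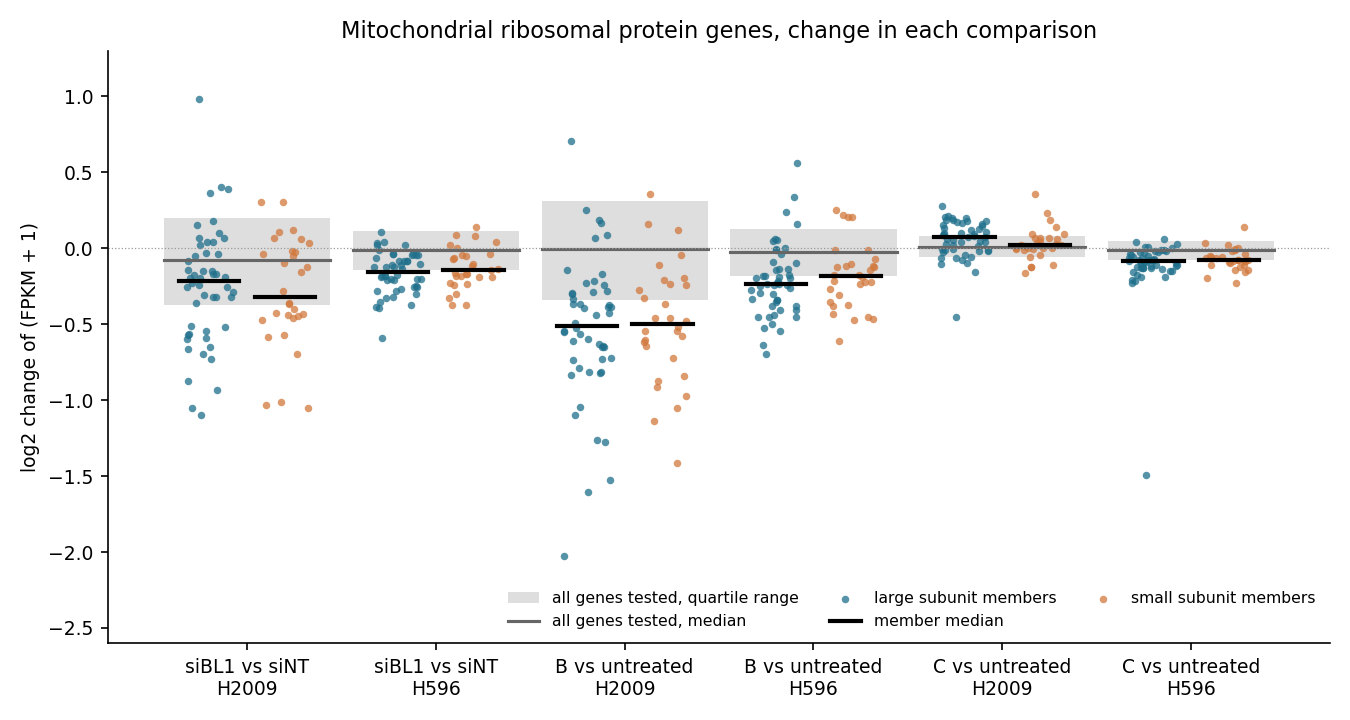
Log2 change of (FPKM + 1) of each large (blue) and small (orange) subunit member in 6 comparisons, each of 2 against 2 libraries; black bars are member medians, the grey band spans the quartiles of all genes tested and the grey line is their median. With compound B in H2009 the member medians lie at -0.51 and -0.50; with compound C in H2009 they lie at 0.07 and 0.02.

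Among the large subunit members, MRPL54, which exists only in mitochondria, read 86.9 and 119 FPKM untreated and 20.6 and 28.4 FPKM with compound B. The level fell to 23.8% of the untreated mean, a log2 change of -2.03 (SE 0.49; limma, adjusted p = 0.0282). MRPL27, a relative of a bacterial protein beside the site where peptide bonds form, went from 139 and 176 FPKM to 52.2 and 49.6 FPKM. Its log2 change was -1.60 (SE 0.23; limma, adjusted p = 0.00336), the smallest p of the members. MRPL48, also mitochondrial only, went from 45.0 and 62.5 to 14.8 and 21.4 FPKM, a log2 change of -1.52 (SE 0.42; limma, adjusted p = 0.0471). For these 3 genes, no library with compound B reached the lower untreated one. MRPL4, whose bacterial relative lines the tunnel through which new proteins leave, read 110.4 and 77.7 FPKM untreated and 53.4 and 36.7 with compound B (-1.05, SE 0.29; limma, adjusted p = 0.0460). MRPL1, whose bacterial relative forms the stalk through which spent tRNA leaves, read 32.2 and 31.9 FPKM untreated, against 16.2 and 19.0 with compound B (-0.83, SE 0.23; limma, adjusted p = 0.0479).

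Among the small subunit members, MRPS28 went from 48.0 and 62.4 FPKM to 17.2 and 23.1 FPKM, a log2 change of -1.41 (SE 0.37; limma, adjusted p = 0.0397). MRPS22, a mitochondrial protein mutated in inherited defects of mitochondrial translation, went from 65 and 77.6 to 32.6 and 30.8 FPKM (-1.14, SE 0.21; limma, adjusted p = 0.0103). MRPS26, also mitochondrial only, read 51.8 and 40.2 FPKM untreated, against 25.6 and 22.1 with compound B (-0.91, SE 0.21; limma, adjusted p = 0.0255). MRPS18B fell from 83.3 and 76.4 to 47.5 and 48.5 FPKM (-0.72, SE 0.20; limma, adjusted p = 0.0446). All 9 genes were also called in the paired fit, with adjusted p from 2.66e-05 for MRPL54 to 0.00412 for MRPS18B.

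A further 14 members had changes as low as those of the called genes, from -1.28 to -0.72, and did not pass the unpaired fit; the paired fit called all 14 lower. The 4 lowest of them are given. MRPL3, whose bacterial relative reaches into the peptide bond centre, was at -1.28 (limma, adjusted p = 0.0611). MRPL42 was at -1.26 (adjusted p = 0.0741), MRPL24 at -1.10 (adjusted p = 0.0781) and MRPS18A at -1.05 (adjusted p = 0.0575) by limma. They were chosen after their values were seen. The single member called higher in the paired fit was the pseudogene row MRPS31P5 (4.16 and 3.67 against 2.82 and 2.85 FPKM).

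**Figure D3:**
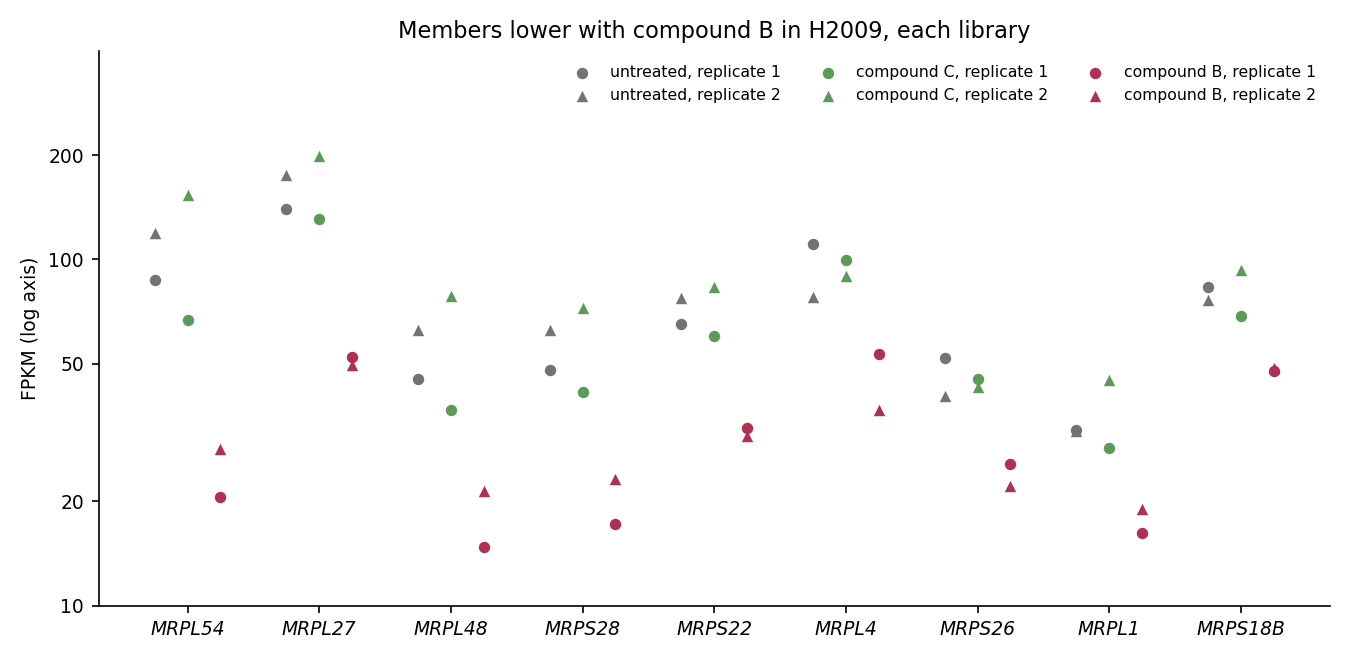
FPKM (log axis) in each H2009 library of the compound table for the 9 members called lower with compound B in the unpaired fit, in order of their change; grey is untreated, green compound C and red compound B, circles replicate 1 and triangles replicate 2. For each gene the 2 red points lie below the other 4, from MRPL54 (20.6 and 28.4 FPKM) to MRPS18B (47.5 and 48.5 FPKM).

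The count of 9 depended on single libraries. It was 1 without compound B replicate 1, without compound B replicate 2 or without untreated replicate 2, 2 without untreated replicate 1, 1 with the 6 H2009 libraries fitted alone and 5 after quantile normalization; MRPL27 passed in each. Several whole-library values moved with the members, and their part in the result was not tested. The FPKM sum was 525804 and 503785 with compound B against 632540 and 629210 untreated, and cytosolic ribosomal protein genes held at most 25.4% of it against at least 26.6%. After quantile normalization, which gives all libraries the same distribution of values, the member median was -0.36 and 68 of 80 lay below 0. NKX2-1 and SFTA3, the 2 of 4 adenocarcinoma markers in the table, summed to 33.8 to 41.9 FPKM with compound B against 126 to 163 untreated.

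Promoter sequences are shown for those called members that hold the ETS motif described here. RefSeq promoters (GRCh38.p14; 250 bases before to 50 after the start) matched 69 of the 80 members, all protein-coding. ETS proteins, a family of activators that bind a GGAA core, are known regulators of nuclear genes for mitochondrial proteins. The letters CCGGAAG, searched on both strands, occurred in 28 of 69 member promoters (40.6%) against 10.3% of all 35116 promoters and 12.8% of the 22199 of protein-coding genes. Of the 8 members with a promoter here that were called lower with compound B in H2009, 5 held it. The lines below give the 150 bases before the start of those 5 on the gene's strand, from 5′ to 3′, with the match in capitals (CCGGAAG or its reverse complement CTTCCGG).
MRPL54: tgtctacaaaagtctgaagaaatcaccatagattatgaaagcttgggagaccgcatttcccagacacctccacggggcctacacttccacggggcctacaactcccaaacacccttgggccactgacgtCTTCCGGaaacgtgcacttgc
MRPL27: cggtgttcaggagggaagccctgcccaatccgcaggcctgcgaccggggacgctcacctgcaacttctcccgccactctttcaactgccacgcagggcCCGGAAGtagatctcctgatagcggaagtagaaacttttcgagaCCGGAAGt
MRPL48: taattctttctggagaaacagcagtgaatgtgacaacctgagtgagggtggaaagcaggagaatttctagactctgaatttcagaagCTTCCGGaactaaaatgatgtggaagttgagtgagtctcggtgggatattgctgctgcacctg
MRPS22: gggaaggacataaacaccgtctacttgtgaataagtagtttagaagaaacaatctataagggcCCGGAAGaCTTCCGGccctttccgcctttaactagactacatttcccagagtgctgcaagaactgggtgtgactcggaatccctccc
MRPS26: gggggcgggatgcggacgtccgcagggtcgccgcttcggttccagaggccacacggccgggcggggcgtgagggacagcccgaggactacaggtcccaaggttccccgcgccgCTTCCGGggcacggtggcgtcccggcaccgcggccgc
They lie at chr19:3762532-3762681 (plus strand) for MRPL54, chr17:50373185-50373334 (minus) for MRPL27, chr11:73787724-73787873 (plus) for MRPL48, chr3:139343844-139343993 (plus) for MRPS22 and chr20:3045902-3046051 (plus) for MRPS26. Within these 150 bases MRPL27 and MRPS22 each carry the letters at 2 places. MRPL4, MRPL1 and MRPS18B had no match.

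The motif was about as frequent in the promoters of large (39.0%) as of small subunit members (42.9%). The 28 members with CCGGAAG had a median log2 change of -0.57 with compound B in H2009, and the 41 without it -0.44. The letters AAGATGGC, a form of the YY1 site, occurred in 20 of 69 member promoters (29.0%; 2.89% of all promoters), in 15 of them downstream of the start. Members with it were at a median of -0.42 and those without at -0.54. GGGCGG, the SP1 box, stood in 60.9% (45.0% of all), CACGTG, the E-box bound by MYC, in 10.1% (7.26%), and TATAAA in 4.35% (11.5%). All matched members are protein-coding. Among promoters of protein-coding genes the shares were 56.3% for GGGCGG, 8.34% for CACGTG, 9.47% for TATAAA and 3.53% for AAGATGGC. Against these, the member shares of GGGCGG and CACGTG were only slightly higher. The palindromic NRF1 site occurred in 1 member promoter (1.45%; 1.24% of all), a share slightly below that of protein-coding genes. Each motif was searched on its own on both strands, so matches of different motifs may overlap. A match is a run of letters and not a bound site.

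In H596 compound B was followed by smaller differences. The unpaired fit called 0 of 80 members and 0% of all genes; before adjustment 0 members had p under 0.05. With the block, limma called 2 lower and 0 higher, beside 2.89% and 3.79% of all genes. The libraries with compound B lay below both untreated ones for 23 members (15.2% of all genes) and above for 4 (12.8%). The median log2 change was -0.24 in the large and -0.18 in the small subunit (all genes -0.03), or -0.13 and -0.064 after quantile normalization, with a member median of -0.06 in replicate 1 and -0.38 in replicate 2. The 2 called in the paired fit were MRPL48, at 40.3 and 70.4 FPKM untreated and 28.9 and 39.8 with compound B (-0.64, SE 0.17; limma, paired adjusted p = 0.0452), and MRPS28, at 49.7 and 74.8 FPKM untreated, against 33.4 and 46.8 with compound B (-0.61, SE 0.15; paired adjusted p = 0.0356). Both are among the members called in H2009. MRPL54 had the lowest change in H596 as in H2009, with 85.9 and 177 FPKM untreated and 64.3 and 89.1 with compound B (-0.70, SE 0.49; limma, adjusted p = 1 unpaired and 0.0673 paired); here the groups overlapped. The squamous markers, 5 of 5 in the table, summed to 1114 to 1485 FPKM with compound B and 1540 to 1824 untreated; the FPKM sum was 551577 and 520093 against 579125 and 618824. The part of either in these values was not tested.

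The difference between the lines was tested as an interaction. The unpaired fit called 0 members (0.125% of all genes with a more positive change in H596 and 0.329% with a more negative one), and 2 had p under 0.05 before adjustment. The paired fit called 8 with a more positive change in H596 and 0 with a more negative one, beside 6.11% and 8.19% of all genes. With the log2 difference and the paired adjusted p by limma, these were MRPL54 (1.33, SE 0.29; limma, paired adjusted p = 0.0120), MRPL27 (1.08, 0.0138), MRPL48 (0.89, 0.0279), MRPS18A (0.87, 0.0269) and MRPL3 (0.84, 0.0259), with MRPS33, MRPS28 and MRPS5. MRPL27 shows the contrast: it stood at 98.2 and 99.0 FPKM in untreated H596 and 75.4 and 62.0 with compound B, against a fall from 139 and 176 to 52.2 and 49.6 FPKM in H2009. Across the 77 protein-coding members the changes in the 2 lines, which share no control library, correlated with r = 0.70.

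**Figure D4:**
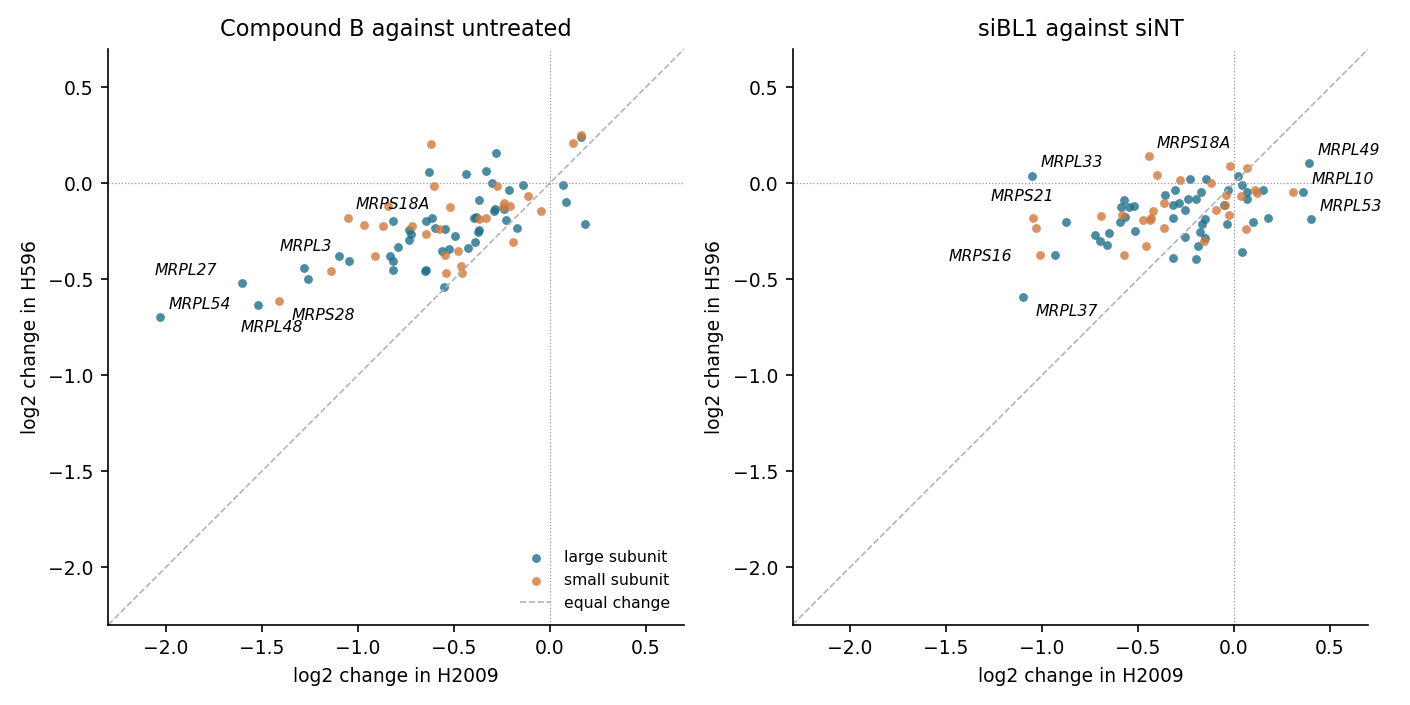
Log2 change of each protein-coding member in H2009 (horizontal) and H596 (vertical), for compound B against untreated (left) and siBL1 against siNT (right); blue is the large and orange the small subunit, each point a difference of 2 against 2 libraries, and the dashed line marks equal change. With compound B, MRPL54 lies at -2.03 in H2009 and -0.70 in H596; with siBL1, MRPL33 lies at -1.05 and 0.04.

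Compound C, dosed and timed as compound B, gave 0 members called against untreated in either line and by either fit (0.00782% of all genes called in H2009 and 0% in H596 by the unpaired fit); in the unpaired fit 0 members had an unadjusted p under 0.05 in either line. In H2009 its libraries lay below both untreated ones for 0 members (2.53% of all genes) and above them for 1 (4.26%), and in H596 below for 8 (7.37%) and above for 1 (3.9%). In H2009 the medians were 0.07 (large) and 0.02 (small), with -0.20 in replicate 1 and 0.33 in replicate 2, the library that stood apart. Without that library they were -0.27 and -0.14, and without replicate 1 they were 0.42 and 0.24. After quantile normalization the small subunit median was -0.01. The highest member was MRPS17, at 178 and 286 FPKM with compound C and 139.7 and 221 untreated, which overlap. The lowest was the pseudogene row MRPL42P5, at 1.08 and 0.824 against 1.03 and 2.49 FPKM. MRPL54, the lowest with compound B, read 66.9 and 153 FPKM with compound C, on both sides of the untreated libraries; its log2 difference was -0.01 (95% confidence interval -1.10 to 1.09). In H596 the medians were -0.09 and -0.08 (all genes -0.01), and 71 of 80 members lay below 0, or 54 after quantile normalization. MRPS14 was highest there (28.8 and 40.6 against 26.2 and 36.4 FPKM, overlapping), and MRPL42P5, listed at 0 in 1 compound C library, was lowest.

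Compounds B and C were also compared directly, 1 pair in each line. In H2009 the unpaired fit called 11 members lower with B and 0 higher (5.28% and 6.16% of all genes), and the paired fit 47 and 1 (24% and 21.6%). The unpaired count was 1 without compound C replicate 2 and 22 without compound C replicate 1, 1 without either compound B library, 6 after quantile normalization and 1 with the H2009 libraries alone. MRPL54 was at -2.02 (SE 0.49; limma, adjusted p = 0.0291) and MRPL27 at -1.65 (SE 0.23; limma, adjusted p = 0.00303). In H596 the count was 0 in both fits. Over all genes the unpaired fit called 0.00782%, and the paired fit 1.67% lower and 2.99% higher. In the unpaired fit 1 member, a pseudogene row, had an unadjusted p under 0.05. The interval of the MRPL54 difference there was -1.73 to 0.47 on the log2 scale. The comparison in H2009 shares the compound B libraries with that against untreated.

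After RUVBL1 knockdown in H2009 the unpaired fit called 0 of 80 members, and 0% of all genes; before adjustment 5 members had p under 0.05. With the block, limma called 33 lower and 5 higher (27% and 15.4% of all genes). The siBL1 libraries lay below both siNT libraries for 19 members (18.9% of all genes) and above them for 2 (12.1%). The median log2 change was -0.21 in the large and -0.32 in the small subunit, against -0.08 over all genes; after quantile normalization they were -0.12 and -0.19, against 0.012. Without siBL1 replicate 2 the small subunit median was 0.03, and without siNT replicate 2 it was -0.66. NKX2-1 and SFTA3 summed to 71.9 to 107 FPKM with siBL1 and 99.5 to 145 with siNT; their part was not tested.

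The genes named here for the siRNA come from the paired fit, and their standard errors (SE) are from that fit too. MRPL33, in the large subunit with a bacterial relative, read 321 and 223 FPKM with siNT and 152 and 108 with siBL1 (-1.05, SE 0.11; limma, paired adjusted p = 0.000335). In the small subunit, MRPS21 read 62.2 and 59.1 FPKM with siNT, against 33.3 and 24.8 with siBL1 (-1.05, SE 0.11; paired adjusted p = 0.000403). MRPS11 read 11.4 and 12.3 FPKM with siNT, against 5.08 and 5.48 with siBL1 (-1.03, SE 0.12; paired adjusted p = 0.000515). In these 3 genes both siBL1 libraries lay below both siNT libraries. MRPS16, mutated in an inherited mitochondrial translation defect, read 30.6 and 26.6 FPKM with siNT, against 16.2 and 11.5 with siBL1 (-1.01, SE 0.11; paired adjusted p = 0.000449), and MRPL57 read 16.6 and 8.44, against 8.22 and 3.93 (-0.93, SE 0.12; paired adjusted p = 0.000721).

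Of the 5 members called higher in the paired fit, the pseudogene row MRPL45P2 was alone in not overlapping: 4.96 and 3.89 FPKM with siBL1 and 1.97 and 1.53 with siNT (0.98; limma, paired adjusted p = 0.000764). A pseudogene can share reads with its parent gene, so its value is uncertain. The other 4 were MRPL53 (0.40), MRPL49 (0.39), MRPL10 (0.36), whose bacterial relative anchors the stalk that binds translation factors, and MRPS36 (0.31). MRPS36 is now counted as a subunit of the oxoglutarate dehydrogenase complex.

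In H596 the siRNA was followed by small, mostly negative differences that were alike in both replicates. The unpaired fit called 0 of 77 members (0% of all genes), and 0 had p under 0.05 before adjustment. With the block it called 47 lower and 1 higher (26.6% and 19.8% of all genes). The libraries did not overlap, siBL1 lower, for 16 members (8.64% of all genes), and 0 lay above (9%). Medians were -0.16 (large) and -0.14 (small) against -0.01 over all genes (-0.10 in both after quantile normalization), and the member median was -0.14 and -0.17 within replicates 1 and 2. MRPL37, a large subunit protein found only in mitochondria, was lowest at 143 and 112 FPKM with siNT and 93.8 and 74.3 with siBL1 (-0.59, SE 0.03; limma, paired adjusted p = 0.000107). In H2009 it was at -1.10, from 219.9 and 78.4 to 111 and 33.3 FPKM, where the groups overlapped and replicate 2 was the lower in each. MRPS16 (-0.37), MRPL57 (-0.37), MRPL24 (-0.30) and MRPL44 (-0.25), an RNase III-like protein of the large subunit, were the next lowest in H596 among members called in the paired fit whose groups did not overlap. The member called higher was MRPL49 (42.6 and 30.2 against 39.8 and 27.8 FPKM; 0.11; limma, paired adjusted p = 0.0470). The squamous markers, 5 of 5, summed to 386 to 566 FPKM with siBL1 and 661 to 997 with siNT; their part was not tested.

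Knockdown and compound B, which have separate control libraries, can be read against each other. The paired fit called 25 members lower with the siRNA in both lines, 75.8% of the 33 in H2009 and 53.2% of the 47 in H596. Over all genes tested in both, the corresponding shares were 51.1% and 48%, so the second was close to that of the members. The 25 make up 32.5% of 77 members, beside 13.8% of the 10323 genes tested in both. In H2009 the paired fit called 23 lower with both siBL1 and compound B, 69.7% of the 33 and 56.1% of the 41. Among all genes these shares were 48.6% and 54.2%, the second again close to that of the members. The 23 make up 28.7% of 80 members, beside 13.2% of 11074 genes. In H596 the paired fit called 0 members lower with both siBL1 and compound B, beside 1.74% of all genes, where compound B had only 2 calls. The size of the change was less alike: r across the 77 protein-coding members was 0.42 between the lines for siBL1 and 0.25 between siBL1 and compound B in H2009. It was 0.29 between siBL1 and compound B in H596, and 0.01 between siBL1 in H596 and compound B in H2009. In H2009 MRPL54 shows the contrast, with 23.8 and 20.6 FPKM with siBL1 and 24.4 and 18.9 with siNT, which overlap (0.04). Its siNT level lay far below untreated H2009 (86.9 and 119 FPKM) and near compound B (20.6 and 28.4 FPKM). The 2 controls thus started from unlike levels, which limits this contrast, and the reason was not tested. MRPL27 was at -0.29 and MRPL48 at -0.14 with siBL1 in H2009, against -1.60 and -1.52 with compound B. In the other direction, MRPS11 read 26.1 and 33.5 FPKM untreated and 27.2 and 30.1 with compound B, overlapping.

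Over the 4 comparisons of siBL1 and compound B, 49 of 77 members lay below 0 in all 4 (63.6%, beside 24.8% of the 10300 genes tested in each) and 18 in 3 (23.4%, beside 22.6%). Members called lower in at least 3 by the paired fit numbered 18 (23.4%, beside 7.7%), and 13 were called lower in none (16.9%, beside 50.2%). Treated libraries lay below both controls in all 4 comparisons for MRPS16, MRPS21 and MRPL24 (3.9%, beside 1.57%). MRPL24, whose bacterial relative sits where the protein tunnel opens, read 39.5 and 56.4 FPKM untreated and 17.3 and 26.8 with compound B in H2009, and 136 and 130.1 with siNT and 108 and 107 with siBL1 in H596. MRPS14 and MRPL49 lay above 0 in all 4; MRPL49 read 69.1 and 68.6 FPKM with compound B and 61.3 and 61.3 untreated in H2009, a log2 difference of 0.16 (limma, adjusted p = 0.739).

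**Figure D5:**
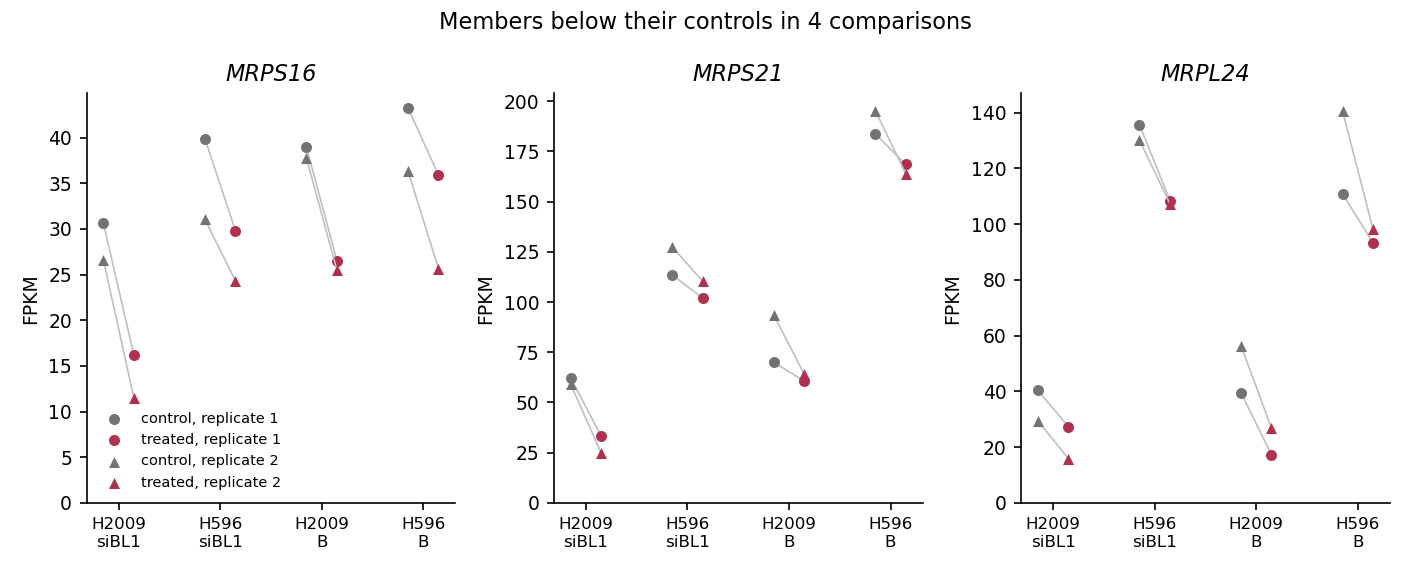
FPKM of MRPS16, MRPS21 and MRPL24 in each control (grey) and treated (red) library of the siBL1 and compound B comparisons; circles are replicate 1, triangles replicate 2, and a line joins libraries of the same number. In each comparison both treated libraries lie below both controls, for MRPS16 in H2009 at 16.2 and 11.5 FPKM with siBL1 against 30.6 and 26.6.

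RefSeq gives a unified ribosomal protein name for 74 members, 44 with a name shared with bacteria and 30 with a name for mitochondria only, MRPS18A and MRPS18B among the latter. With compound B in H2009 their medians were -0.55 and -0.47, with 3 and 5 called lower; with siBL1 they were -0.32 and -0.18 in H2009 and -0.17 and -0.13 in H596. By those names MRPS18A and MRPS30 belong to the large subunit despite their symbols; moving them left the compound B medians of the protein-coding members in H2009 at -0.54 (large) and -0.52 (small).

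MRPS18A, MRPS18B and MRPS18C are paralogs related to a single bacterial protein. With compound B in H2009 MRPS18A read 23.1 and 17.4 FPKM against 50.4 and 36.3 untreated (-1.05, SE 0.31). MRPS18C, the member in the bacterial position, read 33.8 and 41.9 against 42.7 and 69.1 FPKM (-0.52, SE 0.38; limma, adjusted p = 0.440). MRPS18B, above, lay between them (-0.72) and alone passed the unpaired fit. With siBL1 in H2009 MRPS18A was at -0.44, MRPS18B at -0.44 and MRPS18C at -0.02; differences between the paralogs were not tested.

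A further 6 proteins of this ribosome carry other symbols. PTCD3, an RNA-binding protein of the small subunit, fell with compound B in H2009 from 20 and 24.1 to 9.53 and 12.2 FPKM (-0.96, SE 0.26; limma, adjusted p = 0.0452). The others were at -0.68 (CHCHD1), -0.53 (ICT1, a hydrolase built into the large subunit), -0.51 (GADD45GIP1), -0.30 (AURKAIP1) and -0.06 (DAP3, a GTP-binding protein of the small subunit). None of these 5 passed the unpaired fit, and CHCHD1 and GADD45GIP1 passed the paired fit. The paired fit called PTCD3 lower in all 4 comparisons of siBL1 and compound B, with log2 changes of -0.59, -0.28, -0.96 and -0.47.

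Genes that act around this ribosome were counted in the same fits. With compound B in H2009 the unpaired fit called 2 of 27 assembly and rRNA modification genes lower, MTERFD1 (a factor in ribosome assembly; -1.48, SE 0.36; limma, adjusted p = 0.0285) and MRM1 (an rRNA methyltransferase; -0.89), and 0 higher; the list median was -0.34. Of 17 mitochondrial translation factors it called 2 lower, the initiation factor gene MTIF2 (-1.22, adjusted p = 0.00541 by limma) and C12orf65 (a release factor relative; -0.75), and 1 higher, the release factor gene MTRF1L (0.90, adjusted p = 0.0126); the median was -0.46. Of 21 genes of mitochondrial DNA transcription and RNA processing 1 was called lower, POLG2 (the accessory subunit of the mitochondrial DNA polymerase; mean 3.12 FPKM against 7.16), and of 9 nuclear regulators 0, with medians of -0.32 and -0.40. The paired fit called 4 of the regulators lower, HCFC1 (-0.90), PPRC1 (-0.84), NRF1 (-0.54) and PPARGC1B (-0.50), the last below 1 FPKM. Of 83 cytosolic ribosomal proteins the unpaired fit called 1 lower (RPL10, -0.73), with a list median of -0.52. The paired fit called 21 of them lower, against 41 of 80 members. Below 0 lay 82 of the 83, against 71 of 80 members. Both compound B libraries lay below both untreated ones for 63 of the 83, against 56 of 80 members. The median of the 75 respiratory chain subunits was -0.26. Without quantile normalization the member median was -0.51, close to that of the cytosolic ribosomal proteins. After it the medians of the cytosolic ribosomal proteins and the respiratory chain subunits were -0.04 each, and the member median was -0.36. That step gives the highest genes of each library the same values, so it can remove a shared fall of abundant genes. These values therefore do not show that the fall was particular to the members. In H596 the median with compound B was -0.33 in the cytosolic ribosomal proteins and -0.22 in the members. After quantile normalization these were -0.07 and -0.10. Both compound B libraries lay below both untreated ones for 37 of the 83 and 23 of the 80.

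With siBL1 the paired fit called 27% of all genes lower and 15.4% higher in H2009, and 26.6% and 19.8% in H596. Against that, it called 10 of 27 assembly genes lower and 1 higher in H2009, and 12 lower and 2 higher in H596. Of the 17 translation factors it called 10 and 6 lower and 0 higher, and of the 75 respiratory chain subunits 15 lower and 8 higher in H2009 and 30 lower and 3 higher in H596. Of 83 cytosolic ribosomal proteins it called 2 lower and 5 higher in H2009 and 66 lower and 0 higher in H596, where 22 had no overlap between groups. The unpaired fit called 0 genes of these lists with siBL1 in either line.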

How the data were processed

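Stranded mRNA libraries of 20 cell samples were used; the 8 libraries of mutant cDNA were not used here. The deposited values are FPKM, made by the authors per the labels; the submitters' processing notes name CASAVA 1.8.2, TopHat2 2.0.12, Cufflinks 2.2.1 and the hg19 build. FPKM keeps no read counts, the low values showed no common step, and the depth and its counting error are unknown. Each of the 3 tables was analysed on its own. In R 4.3.3, limma 3.58.1 with a trended prior was fitted to log2(FPKM + 1) of all genes with a mean of at least 1 FPKM (over the 6 libraries of at least 1 line for the compounds), with p-values adjusted by Benjamini-Hochberg over all of them. Fold changes on this scale understate the change of low genes. For the siRNA in H2009, 19 rows with symbols turned into dates were left out. The main fit had no block. The same replicate numbers recur in the labels of each group, and same-numbered libraries deviated together in all 17 pairs of groups within a table (r from 0.523 to 0.966, lowest 0.674 within a line), so a fit with the number as a block within each line is given beside it. With 2 against 2 libraries an exact permutation test cannot go below p = 0.333, so none was used.

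Alternatives were a pseudocount of 0.1, no filter, quantile normalization, no pseudogene rows, 1 line alone and leaving out each library. Genes were named by rule: up to 5 highest and 5 lowest called members whose groups did not overlap, from the paired fit where the unpaired fit called fewer than 5, the extremes where neither called any, the 3 highest and 3 lowest levels, the MRPS18 paralogs, pseudogenes, members called against the list, up to 5 that differed between lines, and mitoribosomal proteins under other symbols. MRPL4, MRPS26, MRPL1 and the members shown as contrasts were added after their values were seen. The members and lists were chosen with earlier results of these data known. Promoters are from RefSeq. The fits were also run on simulated data in which same-numbered libraries were paired by construction, so this run did not test the pairing.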

Additional observations from a re-analysis of the deposited data

Results flagged for a closer look

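The effect of compound B differed between the lines in the paired limma fit for several members, with a more positive log2 change in H596 than in H2009. The difference was 1.33 for MRPL54 (-2.03 in H2009 and -0.70 in H596), 1.08 for MRPL27 (-1.60 and -0.52), 0.84 for MRPL3 (-1.28 and -0.44), 0.87 for MRPS18A (-1.05 and -0.18) and 0.89 for MRPL48 (-1.52 and -0.64). In the unpaired fit the limma adjusted p of these 5 ran from 0.277 to 0.819.

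With siBL1, both replicates moved one way in H2009 and the opposite way in H596 for 10 of 77 members, 7 of them up in H2009. Values are given for 3 of these and for GADD45GIP1, the genes named above for the siRNA. These are differences between tables that may have been normalized separately, and they were not tested. The share of all genes with opposite changes was not counted, so the 10 cannot be read as particular to the members. The change in H596 minus that in H2009 was -0.59 for MRPL53 (0.40 in H2009 and -0.19 in H596), -0.41 for MRPL10 (0.36 and -0.05), 0.59 for MRPS18A (-0.44 and 0.14) and -0.55 for GADD45GIP1 (0.25 and -0.30), a protein of the large subunit under another symbol.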

How the results depend on the processing

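The replicate block (paired fit) moved most counts of called members: from 0 to 38 for siBL1 in H2009, 0 to 48 for siBL1 in H596, 9 to 42 for compound B in H2009, 0 to 2 in H596, 11 to 48 for compound B against C in H2009, and 0 to 8 for the difference between lines. With the block and quantile normalization together, chosen after seeing the data, the counts were 36, 39, 39 and 3 for the first 4. Quantile normalization alone gave 5 for compound B in H2009 and 6 against C, and medians of -0.33 (small subunit, compound B, H2009) and -0.027 (small subunit, compound C, H596). It also moved the large and small medians to -0.13 and -0.064 for compound B in H596, to -0.12 and -0.19 for siBL1 in H2009 and to -0.10 in both for siBL1 in H596. The H2009 libraries alone gave 1 for compound B against untreated and 1 against C. Leaving out each library in turn, compound B in H2009 had 1 to 2 called members and 1 to 22 against C. A group left with 1 library was then assumed to vary like the others.

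Leaving out each library, the median ran for compound B from -0.54 to -0.51 (large) and -0.58 to -0.40 (small) in H2009, and -0.36 to -0.12 and -0.27 to -0.13 in H596. For compound C it ran from -0.27 to 0.42 and -0.14 to 0.24 in H2009, and -0.24 to 0.050 and -0.10 to -0.025 in H596. For siBL1 it ran from -0.45 to -0.02 and -0.66 to 0.028 in H2009, and -0.20 to -0.05 and -0.17 to -0.12 in H596. Single genes turned sign without a library: MRPL10 with siBL1 in H2009 ran from -0.037 to 0.76, MRPL49 with siBL1 in H596 from -0.15 to 0.36 (-0.14 without siBL1 replicate 1) and MRPS14 with compound C in H596 from -0.099 to 0.38 (-0.088 without untreated replicate 1). The cause of these shifts was not tested, and FPKM without counts gives no counting error.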
